A study of Mus musculus with 6 samples.

Results

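The cytosolic ribosomal protein genes are the nuclear genes for the proteins of the cytoplasmic ribosome, and they were described here in Lewis cells treated with SD70 or DMSO. Members were chosen by symbol: those starting with Rpl or Rps followed by a number (with an optional final letter or digit), the stalk genes Rplp0, Rplp1 and Rplp2, and Rpsa. Of 16081 listed genes, 83 met this rule (0.516%), 51 of the large and 32 of the small subunit, and they lay on 19 chromosomes. The rule used names and no measured value.

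Lewis cells, a mouse line from a lung carcinoma that the labels call lung adenocarcinoma, were profiled by RNA-seq to look for genes downstream of the histone demethylase KDM4C. Cells were kept for 24 hours with SD70, a small-molecule inhibitor of KDM4C, or with its solvent DMSO as the control. All 6 samples came from the same line, grown in DMEM medium with serum and antibiotics, and no genetic change or second treatment is named for either group. Each group had 3 samples (DMSO replicates 1 to 3 and SD70 replicates 1 to 3), and the SD70 dose used for sequencing is not given in the sources used here. The labels do not say whether replicates were separate cultures, so p-values measure only the spread between these samples. Totals were 15276744 to 17060424 counts per sample. Of the markers of lung epithelium, Epcam, Cdh1, Krt19 and Sftpc were at 0 or 1 count in every sample and Cldn18 at 0 to 5. Krt8 had 2382 to 4150 counts, Napsa 65 to 85 and Krt18 31 to 101, and Nkx2-1 and Sftpb were not listed. Of the mesenchymal markers, the filament Vim had 44823 to 73431, Fn1 7758 to 11279, Zeb1 1532 to 2378 and Zeb2 1173 to 1831, whereas Cdh2 was at 0 or 1. Leukocyte markers stood at 0 to 26 counts.

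A cytoplasmic ribosome is built from ribosomal RNA and one copy of most ribosomal proteins, with several copies of the stalk proteins. The small subunit decodes the mRNA, and the large subunit joins the amino acids and carries the tunnel through which the chain leaves. Ribosomal protein mRNAs are among the most abundant in growing cells, and in vertebrates they characteristically begin with a cytosine and a run of pyrimidines, the 5' terminal oligopyrimidine, through which mTORC1 and Larp1 control their translation. The proteins are made in the cytoplasm, imported into the nucleolus and assembled there with ribosomal RNA by a large set of assembly factors.

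The annotated starts of these genes are shown first, since this run of pyrimidines is the sequence feature that the family is known for. RefSeq starts on GRCm38.p6 were at hand for 63 members, with 75 starts in all. A cytosine followed by at least 4 further pyrimidines stood exactly at the start in 14 of the 75 (18.7%), compared with 2.51% of the 32851 starts of all genes. Starts annotated a few bases off would miss the run. In the sequences printed here, each with 10 bases before the start and 20 from it on the strand of the gene, capitals mark the run. The first 6 are members with a run whose level was lower with SD70 or that had some of the largest negative fold changes, and the last 2 are paralogues with positive fold changes and no such run exactly at the annotated start. In Rpl22l1 a run of pyrimidines begins just after that start.
Rpl15: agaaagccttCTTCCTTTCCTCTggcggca
Rps10: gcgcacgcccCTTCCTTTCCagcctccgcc
Rps18: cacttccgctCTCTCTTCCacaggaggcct
Rps15a: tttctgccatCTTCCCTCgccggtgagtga
Rpl35a: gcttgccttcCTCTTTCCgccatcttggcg
Rpl38: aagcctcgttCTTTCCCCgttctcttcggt
Rpl7l1: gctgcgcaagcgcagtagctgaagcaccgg
Rpl22l1: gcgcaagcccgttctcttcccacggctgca

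These windows lie at chr14:18270967-18270996 (minus strand) for Rpl15, chr17:27635225-27635254 (minus) for Rps10, chr17:33955646-33955675 (minus) for Rps18, chr7:118116128-118116157 (minus) for Rps15a, chr16:33056472-33056501 (plus) for Rpl35a, chr11:114668570-114668599 (plus) for Rpl38, chr17:46782637-46782666 (minus) for Rpl7l1 and chr3:28805498-28805527 (plus) for Rpl22l1. The run was 13 bases long in Rpl15, 10 in Rps10, 9 in Rps18 and 8 in each of Rps15a, Rpl35a and Rpl38. Among other motifs searched on both strands in the 300 bases around each start (250 before, 50 after), CCGGAA, the core recognised by ETS-family factors, was in 48.0% of member starts and 14.9% of all starts. TATAAA was in 10.7% of member starts and 13.6% of all starts. CACGTG, the E-box that Myc binds, was in 10.7% against 7.15%, and TGACGTCA, the cAMP response element, in 6.67% against 1.79%; this pair shares the letters ACGT. A match is a description of the letters only.

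The mRNAs of these genes made up a smaller share of the libraries with SD70. They took 7.37%, 7.69% and 7.58% of all counts in DMSO replicates 1, 2 and 3, and 6.73%, 7.06% and 6.55% in SD70 replicates 1, 2 and 3. Every SD70 sample lay below every DMSO sample. The means were 7.55% ± 0.164 and 6.78% ± 0.256 (SD, n = 3 each), a difference of -0.767 percentage points. The large subunit genes took 4.59%, 4.79% and 4.69% with DMSO and 4.22%, 4.39% and 4.05% with SD70, and the small subunit genes took 2.78%, 2.90% and 2.89% with DMSO and 2.51%, 2.67% and 2.51% with SD70. On the FPKM scale, which divides by transcript length, the members took 23.3% ± 0.449 of the summed FPKM with DMSO and 21.3% ± 0.495 with SD70, again without overlap. In bulk RNA, less of an mRNA per cell and fewer cells carrying it cannot be told apart, and a share depends on all other mRNAs as well.

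**Figure D1:**
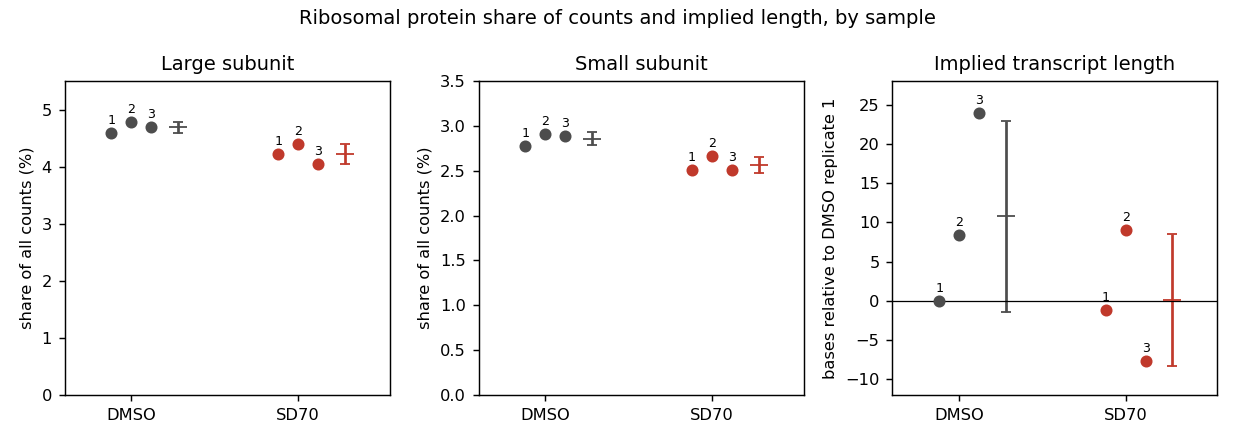
Share of all counts taken by the large subunit genes (left) and the small subunit genes (middle), in percent, and the transcript length implied by counts and FPKM relative to DMSO replicate 1 (right, in bases), with 1 point per sample numbered by replicate and the mean ± SD beside each group. All 3 SD70 samples sit below all 3 DMSO samples in both shares, whereas in the right-hand panel SD70 replicate 2 (9.04 bases) lies between DMSO replicates 2 and 3.

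These genes are among the most highly expressed of the cell. Their median FPKM was 1416, against 13.3 over all genes tested, and 76 of the 80 members tested were in the top 5% of genes. The large and small subunit genes had similar medians of 1422 and 1382 FPKM. The highest mean FPKM belonged to Rps2 (4230), a small subunit protein near the mRNA entrance, Rpl12 (4178), which lies at the base of the stalk, and Rpl13 (3860). The lowest belonged to Rpl22l1 (26.5), Rps6 (48.2) and Rpl7l1 (64.5). In 20 members at least 1 count was not whole. In 8 of them, Rpl23, Rpl27, Rpl31, Rpl34, Rpl37, Rpl5, Rps23 and Rps6, the count was not whole in any sample, and whether reads were shared with similar copies was not tested, so their levels are uncertain. Rpl32l, Rpl39l and Rpl3l had 0 to 2 counts per sample and did not pass the filter on low counts.

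With SD70, most ribosomal protein genes had slightly negative fold changes, and a minority passed the test. By edgeR's quasi-likelihood test at an adjusted p-value under 0.01, with p adjusted over 11552 genes, 24 of the 80 members tested were lower (30.0%), 1 was higher and 55 were not called. Of all genes tested, 24.2% were called lower and 25.8% higher, so the share of members called lower was close to that of all genes, whereas the share called higher was not. The log2 fold change (log2FC) was negative in 72 of 80 members, with a median of -0.14 against -0.00 over all genes, and ranged from -0.41 to 0.41. No member reached a log2FC of 1 in size with an adjusted p under 0.01, as did 5.90% of all genes in edgeR's quasi-likelihood test. In normalized counts, scaled to a common library size, every SD70 sample was below every DMSO sample in 30 members and above in 2, which compares with 31.6% and 32.8% of all genes. Either way, 25 of the 80 were called against 49.9% of all genes, and at an adjusted p under 0.05 in edgeR 42 of the 80 were, against 60.2%.

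The count of members called lower changed when 1 sample was left out. It was 12 without DMSO replicate 2, 10 without DMSO replicate 3, 12 without SD70 replicate 1 and 13 without SD70 replicate 3, and it was 31 without DMSO replicate 1 and 36 without SD70 replicate 2. These fits have fewer samples, and the share of all genes called lower in them is not given here. Whether the changes in count are particular to the members was not tested. The samples differed in how far they moved. Relative to the DMSO mean, the median member had a log2 value of -0.04, 0.03 and 0.02 in DMSO replicates 1 to 3 and of -0.15, -0.05 and -0.19 in SD70 replicates 1 to 3. SD70 replicate 2 was thus nearest to the controls, just below DMSO replicate 1.

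Genes of both subunits were called lower. Of the 48 large subunit genes tested, 12 were lower (25.0%, against 24.2% of all genes) and 1 was higher, with a median log2FC of -0.13. Of the 32 small subunit genes, 12 were lower (37.5%) and none was higher by edgeR's quasi-likelihood test, with a median of -0.15. At an unadjusted p under 0.05 none of the small subunit genes was higher either, and DESeq2 called none higher. DESeq2 called 13 large and 16 small subunit genes lower, beside 2333 of all genes. The number of genes with an adjusted p in DESeq2 is not given here, so these counts were not turned into shares. The difference between the subunits was not tested.

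**Figure D2:**
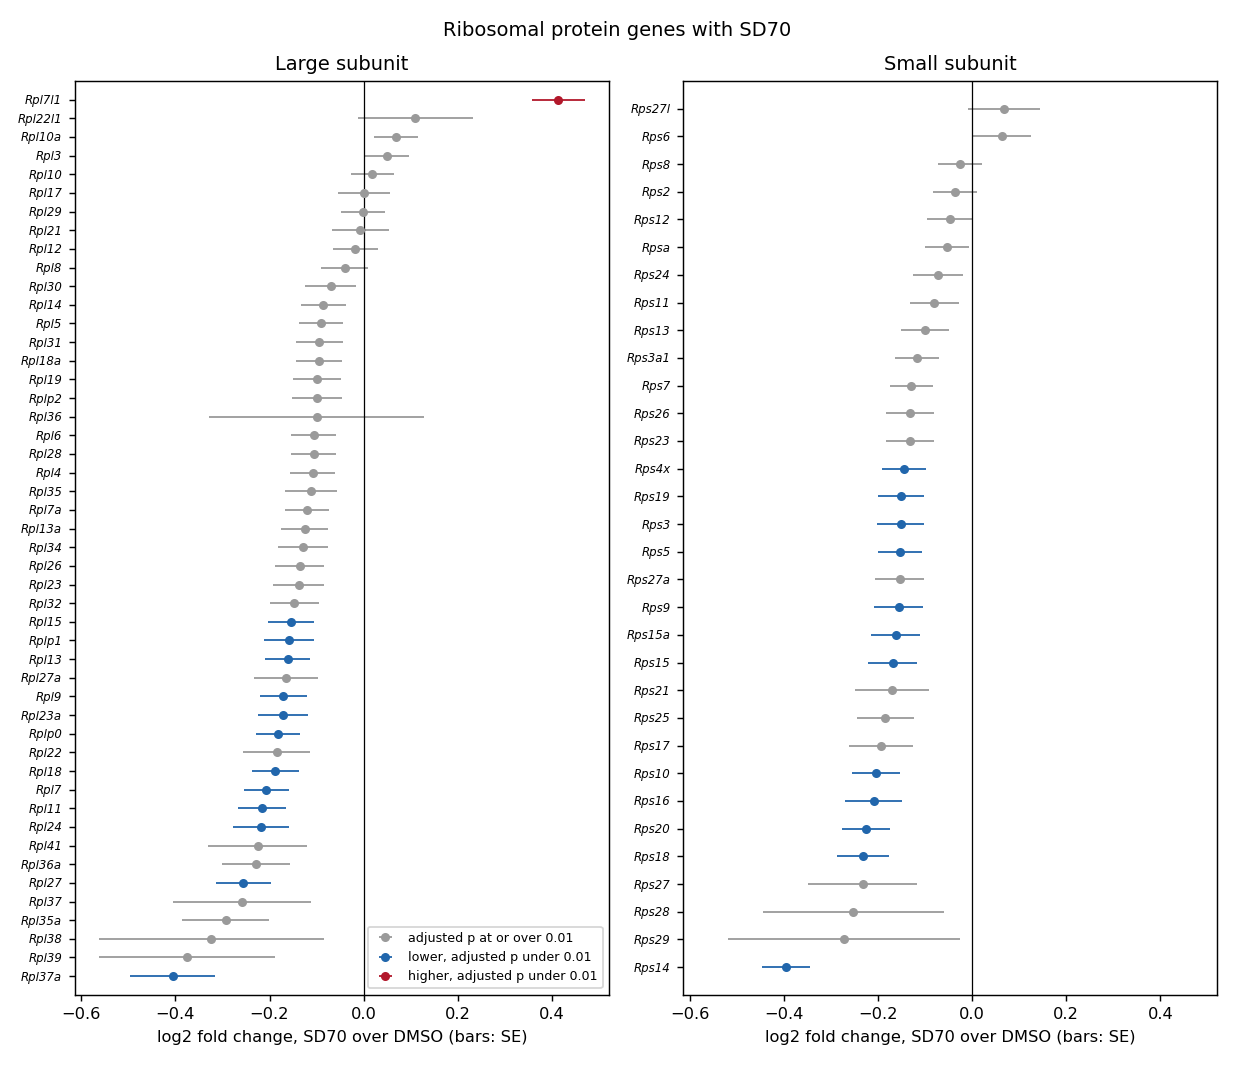
Log2 fold change of SD70 over DMSO (horizontal axis, bars are the standard error) for the 48 large subunit genes (left) and the 32 small subunit genes (right), ordered by fold change and coloured by edgeR's call at an adjusted p under 0.01. Most points lie between -0.3 and 0, the called genes are spread over both panels, and Rpl7l1 stands alone at 0.41.

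Among the small subunit genes, Rps14 differed most. Rps14 (NCBI Gene 20044, chr18:60774596-60778546, GRCm38.p6) encodes a protein of the platform, the part that lines the mRNA exit, and loss of one copy of its human counterpart is known from the 5q- syndrome. It had 10694, 11496 and 11822 normalized counts with DMSO and 8860, 8758 and 8240 with SD70. The groups were well apart, and the SD70 samples were close together. The log2FC was -0.40 (standard error 0.0501, adjusted p = 2.45e-08 in edgeR's quasi-likelihood test), so its level fell by 24.0%. Of all members, only Rps14 was called lower in each of 20 alternative fits, with fold changes from -0.44 to -0.29.

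Other small subunit genes were lower by smaller amounts. Rps18, a protein of the subunit's head, had 9890, 10800 and 11253 normalized counts with DMSO and 8659, 9866 and 8689 with SD70, with no overlap (log2FC -0.23, adjusted p = 0.000603 in edgeR's quasi-likelihood test). Rps20 and Rps10, also proteins of the head, had log2FC values of -0.23 and -0.20 (adjusted p = 0.000305 and 0.00079 in the same edgeR test). Rps3, which forms part of the mRNA entry channel, had 11194, 11741 and 12073 normalized counts with DMSO and 10055, 11036 and 10429 with SD70. The groups did not overlap, and its log2FC was -0.15 (standard error 0.0495, adjusted p = 0.0088 in edgeR's quasi-likelihood test). Rps4x, the X-linked form of the protein, had 41198 to 42694 with DMSO and 37224 to 39165 with SD70, with a log2FC of -0.14 (adjusted p = 0.00823, same edgeR test). The call of Rps3 was lost without any 1 of DMSO replicates 2 and 3 and SD70 replicates 1 and 3 (adjusted p 0.0157 to 0.0548 in edgeR), and so was that of Rps4x (0.0175 to 0.04). In a further fit with each sample's trend on transcript length, as seen in the other genes, taken out, Rps18, Rps10 and Rps4x were at -0.10, -0.09 and -0.11 and lost their calls (adjusted p = 0.0517, 0.073 and 0.0349 in edgeR), while Rps20 was at -0.25 and kept its own. The length used for Rps20 was 3272.3 bases, as implied by counts and FPKM, and was not checked.

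Several well-known small subunit genes did not pass the test. Rps27a, which encodes ubiquitin fused to a ribosomal protein, had 14994, 16769 and 16320 normalized counts with DMSO and 14538, 15179 and 13502 with SD70. Replicate 2 of SD70 lay above replicate 1 of DMSO, and the log2FC was -0.15 (adjusted p = 0.011 in edgeR's quasi-likelihood test). It was called lower in 9 of 20 alternative fits, among them those without DMSO replicate 1 and without SD70 replicate 2 (adjusted p = 0.00241 and 0.00481 in edgeR). Rpsa, also known as the laminin receptor precursor, had 66371, 65760 and 66710 with DMSO and 62374, 65419 and 63840 with SD70. The groups were separate but near each other (log2FC -0.05, adjusted p = 0.328 in edgeR). Rps6, the substrate of S6 kinase, was listed at 921, 926 and 1015 normalized counts with DMSO and 948, 1052 and 991 with SD70, the lowest of the small subunit genes by FPKM. Its groups overlapped (log2FC 0.06, adjusted p = 0.383 in edgeR), and how the authors' counting treated its copies was not tested. Rps2, the most abundant by FPKM, had 57991 to 59064 with DMSO and 54469 to 59408 with SD70, also overlapping (log2FC -0.04).

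In the large subunit, the most negative fold changes as counted were those of Rpl37a, Rpl39, Rpl38 and Rpl35a, all short basic proteins. The order was another once transcript length was taken into account, as given with the length trend. Rpl37a (NCBI Gene 19981, chr1:72711260-72713813, GRCm38.p6), a zinc-finger protein, had 6248, 7350 and 7178 normalized counts with DMSO and 5216, 5860 and 4598 with SD70. The groups did not overlap, and its level fell by 24.5% (log2FC -0.41, standard error 0.0902, adjusted p = 0.00323 in edgeR's quasi-likelihood test). Without SD70 replicate 1 the adjusted p was 0.0562 in edgeR. Rpl39, which lines the exit tunnel, had 7120, 9587 and 8798 with DMSO and 6444, 7739 and 5476 with SD70, so that SD70 replicate 2 exceeded DMSO replicate 1 (log2FC -0.37, adjusted p = 0.158 in edgeR). Rpl38, known for its part in translating Hox mRNAs in the mouse embryo, had 2606, 3288 and 3286 with DMSO and 2496, 3043 and 1783 with SD70. The spread was wide and the groups overlapped (log2FC -0.32, standard error 0.239, adjusted p = 0.314 in edgeR). Rpl35a, a gene mutated in Diamond-Blackfan anaemia, had 5709, 6660 and 6813 with DMSO and 5040, 5900 and 4706 with SD70, with a single overlapping sample (log2FC -0.29, adjusted p = 0.0222 in edgeR), and was called lower in 8 of 20 alternative fits. For these genes the fold change was large for the family but so was the spread between replicates.

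The stalk proteins, which recruit the elongation factors to the ribosome, had negative fold changes in the counts as deposited, and Rplp0 and Rplp1 were called lower. Rplp0, the stalk's anchor, had 42622, 42258 and 43875 normalized counts with DMSO and 36446, 38257 and 38757 with SD70, without overlap. Its level fell by 11.9% (log2FC -0.18, standard error 0.047, adjusted p = 0.00117 in edgeR's quasi-likelihood test), and the adjusted p was 0.0112 without DMSO replicate 3. Rplp1 had 16680, 18529 and 18317 with DMSO and 15015, 17045 and 15888 with SD70, and SD70 replicate 2 lay above DMSO replicate 1 (log2FC -0.16, adjusted p = 0.00922 in edgeR). Rplp2, which pairs with Rplp1, had 5140, 5559 and 5201 with DMSO and 4628, 5380 and 4830 with SD70 and did not pass (log2FC -0.10, adjusted p = 0.109 in edgeR). The call of Rplp1 was lost without each of DMSO replicates 2 and 3 and SD70 replicates 1 and 3, with an adjusted p of 0.0163 to 0.0721 in edgeR. With the trend on transcript length taken out, Rplp0 was at -0.20 and called, Rplp1 was at -0.00 (adjusted p = 0.971 in edgeR) and Rplp2 turned to 0.06.

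Rpl5 and Rpl11 form a particle with 5S ribosomal RNA and, outside ribosomes, bind Mdm2, the ubiquitin ligase of p53. Rpl11 had 11429, 12205 and 11706 normalized counts with DMSO and 9975, 10872 and 9566 with SD70. All SD70 samples were below all DMSO samples, and its level fell by 13.9% before any allowance for transcript length (log2FC -0.22, standard error 0.0509, adjusted p = 0.000444 in edgeR's quasi-likelihood test). Rpl5 had 22537, 22737 and 22085 with DMSO and 21802, 21202 and 20243 with SD70. It was also separate but did not pass (log2FC -0.09, adjusted p = 0.098 in edgeR), and its counts were not whole in any sample. With the trend on transcript length taken out, Rpl5 was at -0.12 and Rpl11 at -0.11, and neither was called (adjusted p = 0.0305 in edgeR for each). The difference between the pair was not tested.

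Of the remaining large subunit genes named, Rpl13 was lower and Rpl13a, Rpl10, Rpl3, Rpl12 and Rpl10a were not called. Rpl13, among the 3 most abundant by FPKM, had 40791, 41270 and 40722 normalized counts with DMSO and 35025, 37738 and 36992 with SD70, clearly apart (log2FC -0.16, adjusted p = 0.00358 in edgeR's quasi-likelihood test). Its call was lost without DMSO replicate 2, DMSO replicate 3 or SD70 replicate 1, with an adjusted p of 0.012 to 0.0205 in edgeR. Rpl13a, known from the interferon-gamma-activated inhibitor of translation, had 12718 to 13838 with DMSO and 11389 to 12700 with SD70, separate but not called (log2FC -0.13, adjusted p = 0.0318 in edgeR). Rpl10, which joins the subunit late in its maturation, had 33974, 34047 and 33456 with DMSO and 33971, 35219 and 33611 with SD70, and the groups overlapped (log2FC 0.02). Rpl3, which reaches towards the peptidyl transferase centre, had 27118 to 28219 with DMSO and 28187 to 29188 with SD70 (log2FC 0.05, adjusted p = 0.365 in edgeR), and Rpl12 had 31796 to 33048 and 30715 to 33148 (log2FC -0.02). Rpl10a, a protein of the L1 stalk, had 10879, 11238 and 11087 with DMSO and 11504, 11831 and 11499 with SD70. All its SD70 samples were higher, but the log2FC of 0.07 did not pass (adjusted p = 0.205 in edgeR).

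Rpl7l1 was the single member called higher in the counts as deposited. Rpl7l1 (NCBI Gene 66229, chr17:46773907-46782656, GRCm38.p6) is a paralogue of Rpl7 known from precursors of the large subunit. It had 2013, 2318 and 2363 normalized counts with DMSO and 2935, 2890 and 3097 with SD70. The groups were well apart, and the log2FC was 0.41 (standard error 0.0559, adjusted p = 1.03e-07 in edgeR's quasi-likelihood test). It was called higher in each of 20 alternative fits, from 0.34 to 0.45. Rpl7 itself, a core protein of the large subunit, had 32252, 32551 and 32378 with DMSO and 27968, 29298 and 26945 with SD70, without overlap, and its level fell by 13.3% (log2FC -0.21, standard error 0.0475, adjusted p = 0.00034 in edgeR).

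Because paralogues can take each other's place in the ribosome, each was also set against its partner within the same sample. Rpl7l1 had 6.24%, 7.12% and 7.30% of the counts of Rpl7 with DMSO and 10.5%, 9.86% and 11.5% with SD70, so that the groups were far apart. In FPKM the ratio was 2.16% ± 0.198 with DMSO and 3.3% ± 0.231 with SD70 (SD, n = 3; two-sided exact permutation test, p = 0.1). Rps27l, a paralogue of Rps27 known as a p53 target, had 929, 1213 and 1105 normalized counts with DMSO and 1161, 1181 and 1059 with SD70, which overlapped (log2FC 0.07, adjusted p = 0.465 in edgeR's quasi-likelihood test). Rps27 had 6676, 8489 and 7988 with DMSO and 7016, 6919 and 5768 with SD70 (log2FC -0.23, adjusted p = 0.131 in edgeR). Their ratio nevertheless separated the groups, at 13.9%, 14.3% and 13.8% of counts with DMSO and 16.6%, 17.1% and 18.4% with SD70 (a difference of 0.31 in log2 ratio, two-sided exact permutation test, p = 0.1).

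The other pairs did not separate. Rpl22l1, the paralogue of the RNA-binding protein Rpl22, had 119, 141 and 136 normalized counts with DMSO and 124, 153 and 151 with SD70 (log2FC 0.11, adjusted p = 0.456 in edgeR's quasi-likelihood test). Rpl22 had 12275, 13684 and 12874 with DMSO and 12516, 11749 and 9900 with SD70 (log2FC -0.18, adjusted p = 0.0358 in edgeR) and was called lower in 3 of 20 alternative fits. It was at -0.26 without SD70 replicate 1 (adjusted p = 0.00282 in edgeR) and at -0.10 without SD70 replicate 3 (adjusted p = 0.115). Their ratio was 1.02% ± 0.0456 of counts with DMSO and 1.27% ± 0.268 with SD70, with overlapping samples (two-sided exact permutation test, p = 0.3, n = 3). Rpl36al, which the name rule leaves out, had a ratio to Rpl36a of 19.9% ± 0.418 with DMSO and 21.9% ± 1.6 with SD70 (same exact test, p = 0.2, n = 3). Rpl36a itself had 12749, 14305 and 14330 normalized counts with DMSO and 12277, 12762 and 10262 with SD70 (log2FC -0.23, adjusted p = 0.013 in edgeR) and was called lower in 8 of 20 alternative fits. With 3 samples against 3, 0.1 is the smallest p that this test can give, and the 4 ratios were not adjusted for their number. The partners Rpl3l, known from muscle, and Rpl39l, known from testis, were at 0 to 2 counts, and Rpl10l and Rps4l were not analysed here.

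**Figure D3:**
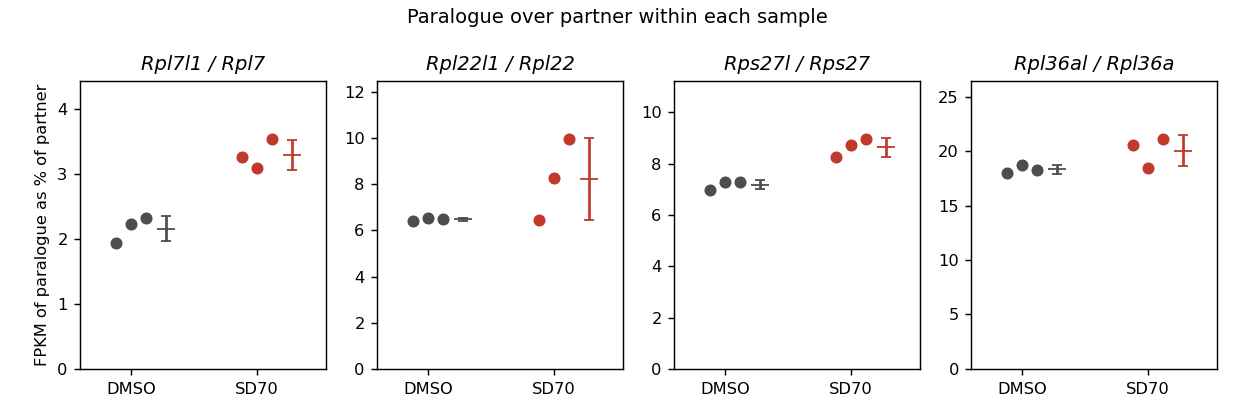
FPKM of each paralogue as a percentage of its partner's FPKM in the same sample, with 1 point per sample in replicate order and the mean ± SD beside each group (n = 3). The groups are separate for Rpl7l1 over Rpl7 and for Rps27l over Rps27 and overlap for Rpl22l1 over Rpl22 and Rpl36al over Rpl36a.

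The ribosomal protein mRNAs are short, and fold changes in these samples moved with transcript length. The length implied by counts and FPKM had a median of 542.5 bases in the members against 2706 over all genes tested. Among genes under 400 bases, the median log2FC was -0.16 in 27 members and also -0.16 in 118 other genes. From 400 to 700 bases it was -0.15 in 29 members and -0.07 in 356 others, and from 700 to 1000 bases -0.13 in 11 members and -0.00 in 550 others. Among longer genes it was -0.09 in 9 members and 0.01 in 2775 others from 1000 to 2000 bases, -0.18 in 3 members and 0.02 in 4598 others up to 4000 bases, and -0.16 in the 1 member above that, against -0.02 in 3075 others. The implied lengths of Rps20 (3272.3 bases) and Rps15a (4962.3 bases) are far above the family's median and were not checked against their transcripts. Their places in these bins, and their values in the fit described next, rest on those lengths. Within the family, the fold change and the log2 length had a Spearman's rho of 0.34 and a Pearson's r of 0.35 over 80 genes, which share the same 6 libraries. The implied length differed between libraries by a nearly constant number of bases, with medians of 0, 8.36 and 23.9 in DMSO replicates 1 to 3 and -1.20, 9.04 and -7.65 in SD70 replicates 1 to 3, all relative to DMSO replicate 1. Its part in the lower counts was not tested beyond the fit described next.

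When each sample's trend on transcript length, fitted on the other genes, was taken out of the fit, 8 members were lower and 2 were higher by edgeR's quasi-likelihood test. In that fit 25.1% of all genes were lower and 25.9% were higher. The median log2FC of the members was then -0.08, and it was negative in 57 of 80. Those lower were Rpl27, Rpl35a, Rpl37a, Rpl7, Rplp0, Rps14, Rps20 and Rps3, of which 7 were also called without this step. Rps14 had -0.29 and Rpl37a -0.30, whereas 17 of the 24 members lost their call, among them Rpl13 at -0.10 and Rpl11 at -0.11 (adjusted p = 0.0305 in edgeR). The short genes Rpl39, Rpl38 and Rpl35a moved to -0.21, -0.15 and -0.15, while Rpl22 was at -0.23 and Rpl37 at -0.22. Rpl7l1 was again higher, at 0.38, and Rps27l passed at 0.20 (adjusted p = 0.00328 in edgeR). In replicates 1 and 2 alone, which were chosen after seeing these lengths since their implied lengths lie closer together, 2 members were lower, against 19.8% of all genes, with medians of -0.10 in the large and -0.12 in the small subunit. With the trend taken out as well, 5 were lower, against 20.7% of all genes, with medians of -0.07 and -0.08. These fits have 2 samples against 2.

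**Figure D4:**
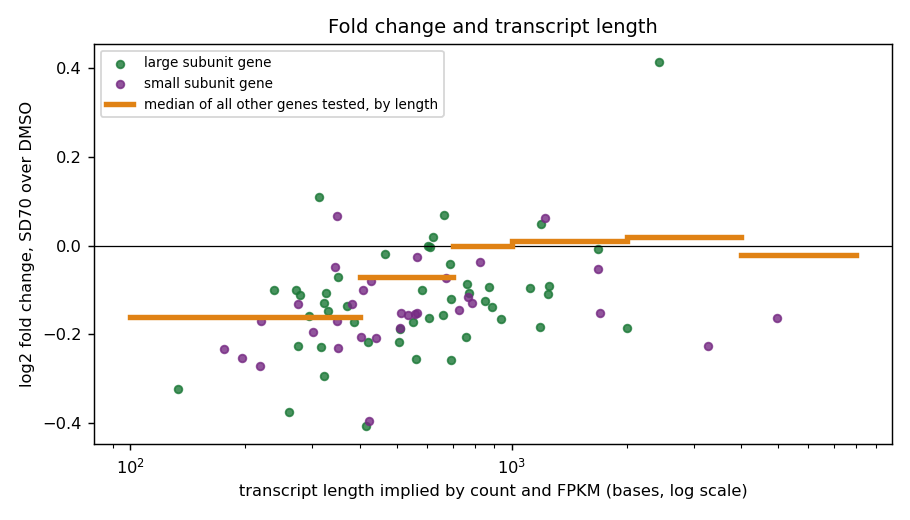
Log2 fold change of SD70 over DMSO against the transcript length implied by counts and FPKM (bases, log scale) for the 80 members tested, coloured by subunit, with the median of all other genes tested in bins of length as bars (the shortest and longest bins are open-ended). Under 400 bases the median was -0.16 both in the members and in the other genes, with 92.6% and 72.0% of them negative. Members between 700 and 1000 bases lie below the bar of the other genes.

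Members with and without a run of pyrimidines at the start were set side by side. Of the 13 tested members with a run at an annotated start, 4 were lower by edgeR's quasi-likelihood test (Rpl15, Rps10, Rps18 and Rps15a, whose starts are printed among the sequences), with a median log2FC of -0.16. Of the 47 with a listed start and no run, 14 were lower and 1 was higher, with a median of -0.14. The shares called lower were 30.8% and 29.8%, near the 24.2% of all genes, while 25.8% of all genes were called higher. With the trend on transcript length taken out, the calls of Rpl15, Rps10, Rps18 and Rps15a were lost and 1 gene with a run, Rpl35a, was lower (median -0.05). Of those without a run, 4 were lower and 2 were higher (median -0.09). In the same fit 25.1% of all genes were lower and 25.9% were higher. Rps6, which has a run of 9 bases, was at 0.06. Of 19 other mRNAs known to carry such a run, 7 were called lower (36.8%, against 24.2% of all genes), none higher and 12 were not called, with a median of -0.11. At an unadjusted p under 0.05 in edgeR, 1 of them was higher, and DESeq2 called 7 lower and none higher. Among them, Pabpc1, the poly(A)-binding protein, fell by 0.20 on the log2 scale (adjusted p = 0.000472 in edgeR's quasi-likelihood test) and Eef2, the translocase of elongation, by 0.23 (adjusted p = 0.000169, same edgeR test). Vim fell by 0.47 (adjusted p = 6.69e-10, edgeR). Eef1a1, the most abundant of the elongation factors, had a log2FC of -0.08 and Tpt1 of -0.11, and neither was called. Among 12 genes of the mTORC1 branch that acts on these mRNAs, 5 were higher (41.7%, against 25.8% of all genes) and 1 was lower. Larp1, which binds the run directly, had 4583, 4616 and 4581 normalized counts with DMSO and 6057, 5952 and 6490 with SD70 and rose by 0.42 (adjusted p = 3.83e-09 in edgeR). Eif4ebp1, a repressor of cap-dependent translation, rose by 0.44 and its relative Eif4ebp2 fell by 0.68 (adjusted p = 2.38e-09 and 4.27e-13 in edgeR). Mtor itself was at -0.10 and did not pass (adjusted p = 0.112, edgeR).

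Components of the ribosome whose names the rule misses lay close to the members. Fau, which encodes a small subunit protein fused to a ubiquitin-like one, had 11259, 11571 and 11080 normalized counts with DMSO and 10314, 10639 and 9612 with SD70, without overlap (log2FC -0.15, adjusted p = 0.00899 in edgeR's quasi-likelihood test). Its call was lost in 5 of the 6 fits without 1 sample, all but that without SD70 replicate 2, and with the trend on transcript length taken out it was at -0.04 (adjusted p = 0.488 in edgeR). Rack1, a scaffold on the small subunit's head, had 24751, 24486 and 25426 with DMSO and 21899, 23416 and 23958 with SD70. The groups were separate, but the log2FC of -0.11 did not pass (adjusted p = 0.0522, edgeR).

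The factors that build ribosomes were mostly higher with SD70. Of 63 large subunit assembly factors tested, 52 were higher and none was lower by edgeR's quasi-likelihood test, with a median log2FC of 0.46, and of 50 small subunit assembly factors, 38 were higher and none was lower, with a median of 0.39. These lists compare with 25.8% of all genes called higher. At an unadjusted p under 0.05, 2 and 1 of them were lower, and DESeq2 called none lower. With the trend on transcript length taken out, 1 large subunit assembly factor was called lower and no small subunit one. Esf1, a nucleolar factor of early small subunit assembly, had 1482, 1606 and 1438 normalized counts with DMSO and 4010, 3463 and 4190 with SD70, with a log2FC of 1.37 (standard error 0.0623, adjusted p = 2.03e-16 in edgeR). Gnl3, the nucleolar GTPase nucleostemin, had 1428, 1678 and 1568 with DMSO and 3234, 2881 and 3110 with SD70, with a log2FC of 0.98 (adjusted p = 4.94e-16 in edgeR). In both genes the SD70 samples were far above the controls. Nucleolin (Ncl), an abundant nucleolar protein, rose by 0.67 (adjusted p = 6.25e-13, edgeR), whereas Npm1 was at 0.13 with overlapping samples (adjusted p = 0.0428, edgeR).

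Of the proteins that guide the modification of ribosomal RNA with small nucleolar RNAs, 11 of 12 were higher (91.7%, against 25.8% of all genes) and none was lower, with a median of 0.56; Nop10 was at -0.25 and was the 1 gene negative at an unadjusted p under 0.05, and DESeq2 called 10 higher and none lower. Nop58 had 3422, 3738 and 3706 normalized counts with DMSO and 8615, 8102 and 8965 with SD70, more than doubling (log2FC 1.24, adjusted p = 1.67e-20 in edgeR's quasi-likelihood test). Its partner Nop56 rose by 1.07 (adjusted p = 5.51e-19, edgeR). RNA polymerase I, which makes the ribosomal RNA precursor, was mixed, with 9 of 20 genes higher (45.0%, against 25.8% of all genes) and 2 lower (10.0%, against 24.2%). Its subunit gene Twistnb had 1252, 1380 and 1329 with DMSO and 2976, 2642 and 2976 with SD70 (log2FC 1.12, adjusted p = 3.37e-18 in edgeR), while Polr1d, shared with polymerase III, fell by 0.28 (adjusted p = 1.07e-05, edgeR). Of the 5 escorts that carry single ribosomal proteins into assembly, 4 were higher (80.0%). Tsr2, which escorts Rps26, rose by 1.09 and Grwd1, which escorts Rpl3, by 0.76 (adjusted p = 2.40e-15 and 1.41e-09 in edgeR), while their clients were at -0.13 and 0.05 and were not called; Rps26 turned to 0.03 with the trend on transcript length taken out.

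Factors that act on finished ribosomes gave no single direction. Of 11 elongation and release factors, 5 were higher (45.5%, against 25.8% of all genes) and 2 were lower (18.2%, against 24.2%), among them Etf1, the release factor, which rose by 0.69 (adjusted p = 2.81e-14 in edgeR's quasi-likelihood test). Of 17 genes for the rescue of stalled ribosomes, 7 were higher (41.2%) and 2 were lower (11.8%). Zfp598, the ligase that marks collided ribosomes, had 1344, 1294 and 1248 normalized counts with DMSO and 2246, 2257 and 2589 with SD70, with a log2FC of 0.87 (adjusted p = 6.52e-15 in edgeR). The 78 mitochondrial ribosomal protein genes, which serve the separate ribosome of mitochondria, had 24 higher (30.8%, near the 25.8% of all genes), 6 lower (7.69%, against 24.2%) and a median of 0.11. Mrpl18 fell by 0.64 and Mrpl1 rose by 0.60 (adjusted p = 6.39e-11 and 3.61e-08 in edgeR). The differences between lists were not tested.

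**Figure D5:**
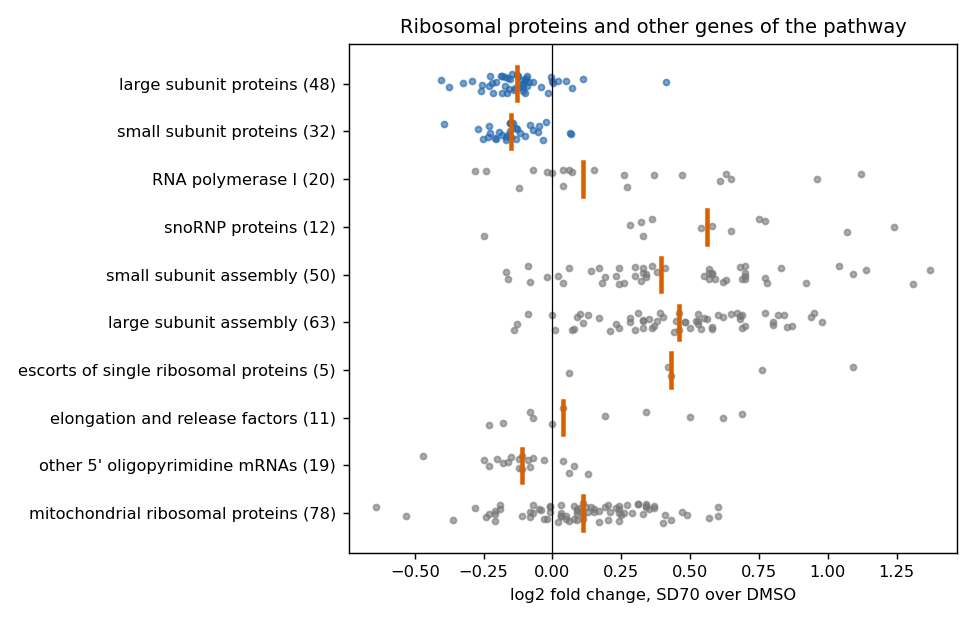
Log2 fold change of SD70 over DMSO for the tested genes of each list (number in brackets), with 1 point per gene and a bar at the median. The ribosomal protein genes (top rows) gather just below 0, with medians of -0.13 and -0.15, while the assembly lists have medians of 0.39 and 0.46.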

How the data were processed

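Lewis cells treated with DMSO or SD70 were profiled by RNA-seq, with 3 samples each, grouped by the labels. The authors aligned clean BGISEQ-500 reads to GRCm38.p6 with HISAT per the paper's methods, whereas the submitters' processing notes name StringTie 1.3.3b and the build mm8. The tool used for counting is not given in the sources used here. The deposited files hold an expected count per gene that was not normalized, of which 8.84% to 9.28% per sample were not whole. The deposited expression column was taken as FPKM from its values, by the authors' scaling to effective transcript length and library size.

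Expected counts were rounded, filtered with filterByExpr (11552 of 16081 genes kept), scaled by TMM (factors 0.984 to 1.02) and tested in edgeR 4.0.16 (R 4.3.3) with glmQLFit (robust) and glmQLFTest. Calls were made at a Benjamini-Hochberg adjusted p under 0.01, over all genes tested, with no fold minimum. Standard errors come from the quasi-likelihood F statistic. Transcript length was that implied by count, total and FPKM. Ratios of paralogues were compared by a two-sided exact permutation test. Replicates of a group differed by more than sampling noise (chi-square per gene 2.12 to 4.97) and were kept apart. Precision is limited by 3 samples per group.

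The members and the gene lists were chosen with earlier results of these data known. Genes named are the 5 largest fold changes in each direction, stalk proteins, paralogue pairs, Rpl5 and Rpl11, 6 well-studied members, the 3 highest and lowest by FPKM, and leading genes of each list. Other genes with values, such as Rps18, Rps20, Rps10, Ncl, Npm1, Mtor, Nop10 and Polr1d, were named after their values were seen. Alternatives were DESeq2's size factors, library totals, TMM without the members, other filters, DESeq2 1.42.0, limma-trend 3.58.1 on log2(FPKM + 1) and log2(FPKM + 0.1), the replicate block, each sample left out, a loess trend on length (span 0.4), truncation and other thresholds. The scripts were tested on simulated data with known changes before they were run on these counts.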

Additional observations from a re-analysis of the deposited data

How the results depend on the processing

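The median log2 fold change was negative in both subunits under all alternatives run, and none of the 71 named genes re-run in every alternative was called in the opposite direction. Of their 1562 values, 1430 kept their side of the threshold, 95 lost the call and 37 gained it, and the sign differed in 9. The median ranged from -0.16 to -0.10 in the large and from -0.18 to -0.13 in the small subunit when 1 sample was left out, and the difference in share of counts from -0.906 to -0.654 percentage points. The number of members called lower, 24 as reported, was 10 to 36 when 1 sample was left out. With library totals alone it was 39, and the medians moved to -0.17 and -0.19 and that of all genes to -0.04. It was 11 with limma-trend on log2(FPKM + 1) and no filter. With the trend on transcript length taken out it was 8, with 2 higher and a small subunit median of -0.08. It was 2 in replicates 1 and 2 alone, where the medians were -0.10 and -0.12, and 5 there with the trend taken out, where the small subunit median was -0.08. At an adjusted p under 0.05, which 60.2% of all genes passed, 41 members were lower, and with a minimum log2 fold change of 1 in size added, 0 were higher and 0 were lower. As a share of the summed FPKM the difference was -1.98 points. DESeq2 called 29 members lower, beside 2333 of all genes. With the replicate number as a block, 33 members were lower and 1 was higher. The share of all genes called is not given here for DESeq2, the block, library totals, limma-trend or the fits without 1 sample. Those member counts are therefore not set against all genes. Samples of the same number had correlations of 0.149, -0.0249 and -0.0152 in their deviations from the group means, so the numbers were not taken as pairing. Depth was similar in all samples, and the small number of samples limits the precision for changes of this size. The causes of these differences were not tested.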
